A study of Mus musculus with 6 samples.

Results

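The 43 genes described here are interferon-stimulated genes of the mouse lung, chosen by symbol from a list. The list was drawn up with earlier results of these data known. All 43 were among the 24054 gene rows of the deposited table, and 42 of them were among the 14159 genes expressed highly enough to be tested. By role, 28 were counted as type I genes (20 antiviral effectors, 4 genes for cytosolic RNA sensors and their ubiquitin ligase, and 4 for signalling factors and a feedback enzyme). The other 15 were counted as gamma genes (3 factors and feedback genes, 8 guanylate-binding proteins or GBPs, and 4 immunity-related GTPases or IRGs). Many of these genes respond to both kinds of interferon, so the classes state which response each gene is best known for.

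The libraries came from the lungs of 6 female SCID mice, which carry a defect in lymphocyte development, with 3 mice in each group. Each mouse first received extracellular vesicles (EVs), membrane particles released by cells, that bore CD9, CD63 and CD81 and had been labelled fluorescently. In the Tsc1-null EV group the vesicles came from E15.5 mouse embryo neural progenitors without Tsc1, whose product restrains the growth kinase mTORC1. In the WT EV group they came from wild-type progenitors of that age. All 6 mice were then given 500000 rat ELT3 cells, a line used as a model of lymphangioleiomyomatosis, by vein 48 h after the vesicles, and the lungs were taken 72 h after the cells. The genotype therefore belongs to the cells that made the vesicles and not to the lungs, the age of the mice is not given in the sources used here, and no lung without vesicles or without ELT3 cells was analysed here.

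Interferons are secreted when cells sense infection, foreign nucleic acid or damage. Type I interferons signal through IFNAR and lead to binding at the interferon-stimulated response element, which switches on antiviral effectors. Interferon gamma, made mainly by natural killer cells and T cells, signals through IFNGR to the gamma-activated site and raises IRF1, the GBPs and the IRGs, GTPases that attack the vacuoles in which intracellular pathogens live.

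Of the 43 genes, 30 had a promoter in the RefSeq table of build GRCm38.p6, which gives 250 bases before and 50 bases after each annotated start. Oas2, Mx1, Mx2, Rtp4, Zbp1, Parp14, Dhx58, Usp18, Gbp4, Gbp6, Gbp8, Gbp9 and Iigp1 had no entry. The response element was searched on both strands as 2 copies of GAAA separated by any 2 bases, and the activated site as TTCNNNGAA. The promoters of 4 genes are shown because they hold a match and had the smallest unadjusted p in their class among genes higher or lower in Tsc1-null EV lungs. They run 5′ to 3′ on the strand of the gene, and capitals mark the matches.
Oas1a, type I, higher, chr5:120907476-120907775, minus strand: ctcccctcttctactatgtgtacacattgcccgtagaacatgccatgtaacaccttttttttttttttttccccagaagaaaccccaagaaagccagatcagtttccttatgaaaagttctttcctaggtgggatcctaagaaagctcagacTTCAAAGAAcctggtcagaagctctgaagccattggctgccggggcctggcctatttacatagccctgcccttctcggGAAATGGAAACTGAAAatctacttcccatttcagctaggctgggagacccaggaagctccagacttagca
Ifit2, type I, lower, chr19:34550444-34550743, plus strand: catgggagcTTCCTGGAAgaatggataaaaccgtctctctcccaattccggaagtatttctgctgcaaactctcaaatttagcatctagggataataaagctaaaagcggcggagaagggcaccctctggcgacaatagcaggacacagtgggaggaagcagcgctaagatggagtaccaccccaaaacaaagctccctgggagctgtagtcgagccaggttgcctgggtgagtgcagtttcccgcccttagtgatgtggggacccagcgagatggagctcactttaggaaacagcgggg
Socs1, gamma, higher, chr16:10785487-10785786, minus strand: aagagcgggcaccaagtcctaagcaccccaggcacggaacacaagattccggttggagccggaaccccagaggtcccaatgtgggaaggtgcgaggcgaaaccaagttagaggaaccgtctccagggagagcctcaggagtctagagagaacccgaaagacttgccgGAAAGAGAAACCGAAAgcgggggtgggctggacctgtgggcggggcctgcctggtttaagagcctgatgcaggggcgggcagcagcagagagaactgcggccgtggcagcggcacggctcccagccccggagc
Gbp3, gamma, lower, chr3:142559794-142560093, plus strand: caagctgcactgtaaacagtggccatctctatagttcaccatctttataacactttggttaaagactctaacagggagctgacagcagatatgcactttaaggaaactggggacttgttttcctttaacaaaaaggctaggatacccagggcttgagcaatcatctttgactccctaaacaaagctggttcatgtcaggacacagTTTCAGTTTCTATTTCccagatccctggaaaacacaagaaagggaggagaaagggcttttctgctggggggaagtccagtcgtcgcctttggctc

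In Oas1a, Socs1 and Gbp3 the 16 capital bases are 2 overlapping response-element matches, which begin 20, 83 and 45 bases before the start. The Gbp3 match reads on the opposite strand. Oas1a also held the activated-site letters 98 bases before its start, and Ifit2 held only these, 241 bases before its start. A response-element match was present for 18 of the 30 genes (60%), against 3.99% of all 27018 genes with a promoter. It was present for 10 of 20 type I genes (50%) and for 8 of 10 gamma genes (80%). The activated-site letters occurred for 10 of the 30 genes (33.3%), against 9.55% of all genes, with 4 of 20 type I genes (20%) and 6 of 10 gamma genes (60%). All 4 GBPs with a promoter entry, Gbp2, Gbp3, Gbp5 and Gbp7, held the response element, and Gbp5 and Gbp7 held the activated site as well. Oas1a and Socs1 carry such an overlapping pair, as does Gbp3, but their higher means in Tsc1-null EV lungs rest on differences smaller than the standard error. No relation between the matches and the direction can be read from these genes. These matches describe the letters and not binding.

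The libraries held 5101413, 9358820 and 9092830 reads in Tsc1-null EV lungs and 8222269, 6565182 and 8079325 reads in WT EV lungs. Values are TMM-normalized CPM (reads scaled to a common library total), written below as units, and 3 reads correspond to 0.323 to 0.601 units depending on the library. Tsc1-null EV replicate 1 and WT EV replicate 2 stood apart, with median correlations of 0.942 and 0.963 with the other libraries, against 0.980 to 0.982 for the rest. Both were rich in the nuclear RNA Malat1, at 30060 and 15673 units, against 1609 to 2819 units elsewhere. Lung identity was seen in the surfactant gene Sftpc, at 13094 to 29628 units in Tsc1-null EV lungs and 17290 to 22064 units in WT EV lungs. Tsc1 itself cannot check the groups, since it was removed only in the donor cells.

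No interferon-stimulated gene passed the test between the groups. With limma, 0 of 42 tested members had an adjusted p under 0.05 (range 0.721 to 0.990), as did 0% of the 14159 genes tested, of which 930 had an unadjusted p under 0.05. edgeR on the recovered reads also called 0 genes, with 962 at that unadjusted level. The 11 genes that DESeq2 called included 0 members. The members nevertheless leaned to one side: 36 of 42 had a log2 fold below 0, taken on value + 1 with Tsc1-null EV as the numerator, and 6 had one above 0, where 52.7% of all genes were below 0. Their median log2 fold was -0.23, against -0.02 for all genes. Members are induced together and are not independent of each other. They were also chosen with earlier results of these data known, so these counts carry no test.

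At an unadjusted p under 0.05, 5 members were lower in Tsc1-null EV lungs (Ifit2, Gbp3, Gbp5, Gbp7 and Iigp1) and Usp18 was higher. Over all genes 2.97% were lower and 3.6% higher at that level. In 7 members (16.7%) every Tsc1-null EV value lay below every WT EV value, against 6.22% of all genes. These were Ifit2, Mx2 and Bst2 of the type I class and Gbp3, Gbp5, Gbp7 and Iigp1 of the gamma class. Usp18 was the only member with every Tsc1-null EV value above every WT EV value (2.38%), a pattern held by 6.86% of all genes.

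Tsc1-null EV replicate 1 had the lowest of the 6 values in 31 of 42 members (73.8%), against 30.4% of all genes, so much of the lean rests on this lung. At the other end, WT EV replicate 1 had the highest value in 22 of 42 members (52.4%), against 12.9% of all genes. Averaged over the 42 members on the log2 scale, relative to the WT EV mean, the Tsc1-null EV lungs stood at -0.57, -0.07 and -0.04 and the WT EV lungs at 0.17, -0.05 and -0.12. Without Tsc1-null EV replicate 1 the median log2 fold was -0.08, with 25 members below 0 and 17 above. Without both libraries that stood apart it was -0.08, with the same counts. In a lung homogenate, fewer cells of a type and less RNA per cell cannot be told apart.

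**Figure D1:**
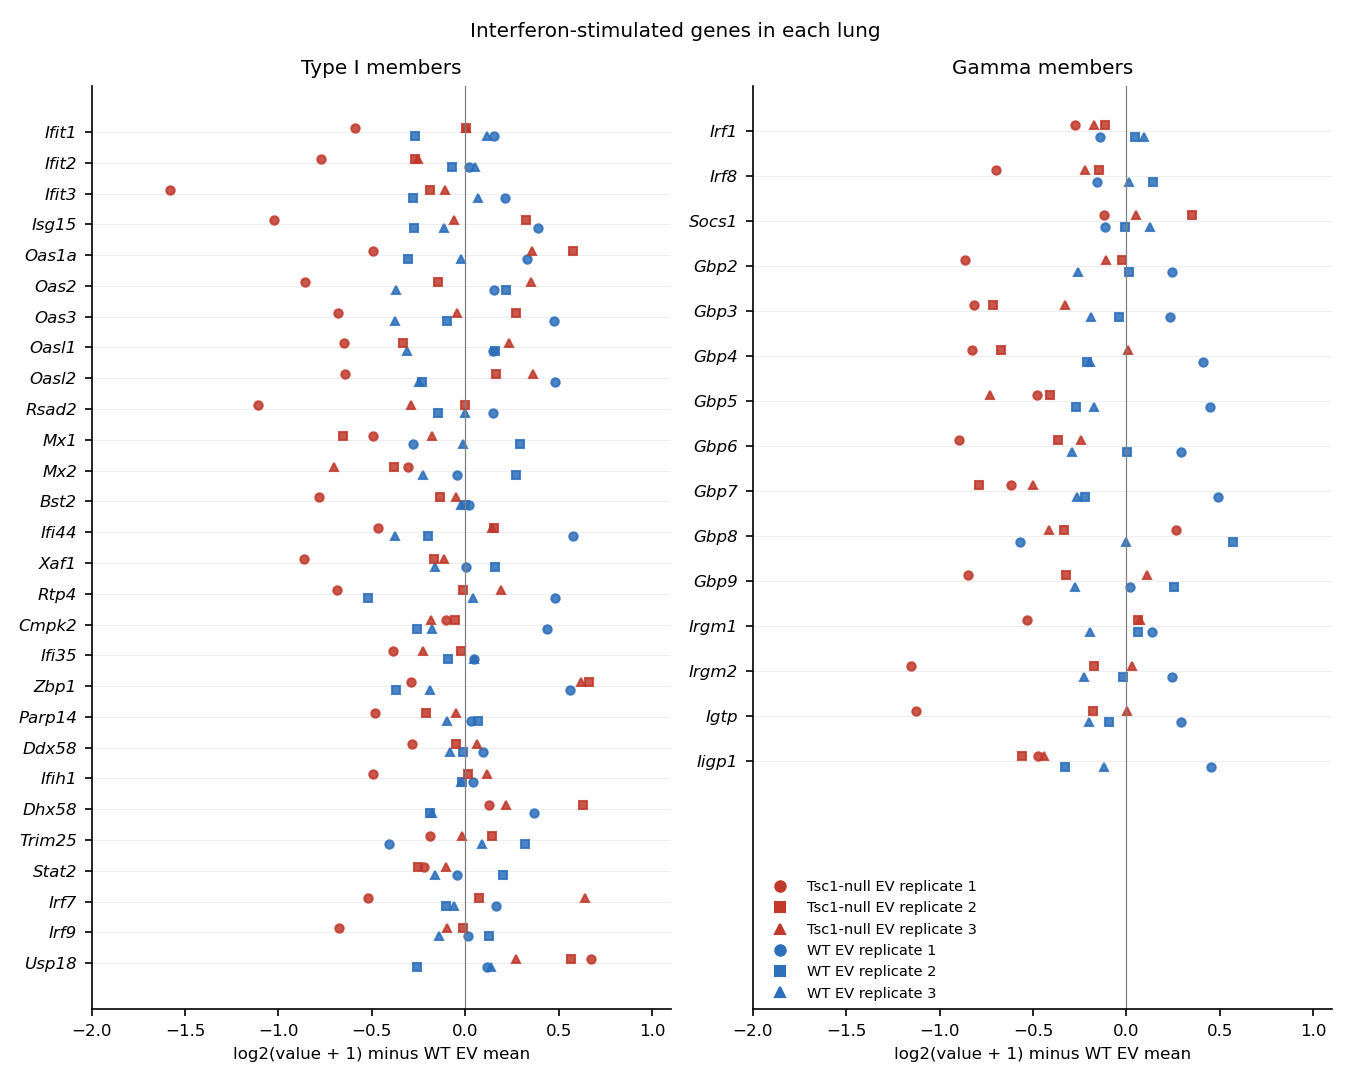
Each point is a library's log2(value + 1) for a gene minus the WT EV mean of that gene, with type I members at the left and gamma members at the right; red marks Tsc1-null EV lungs, blue WT EV lungs, and the shape gives the replicate. The red circles of Tsc1-null EV replicate 1 lie lowest in 31 of the 42 tested members, while in Gbp7, Gbp5 and Iigp1 all red points lie below all blue ones.

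Among the type I effectors, 17 of 19 tested genes had a log2 fold below 0 (median -0.22), but 16 of the 19 had their lowest value in Tsc1-null EV replicate 1. The mean effector level was -0.67, 0.01 and 0.01 in the Tsc1-null EV lungs and 0.24, -0.12 and -0.13 in the WT EV lungs, in log2 units from the WT EV mean. The groups therefore overlapped, with a single low Tsc1-null EV lung. Without it the median over the effectors was -0.05, with 10 genes below 0 and 9 above.

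Ifit2, whose product binds RNA and restrains translation in infected cells, had 18.2, 26.3 and 26.6 units in Tsc1-null EV lungs, against 32.3, 30.3 and 33.1 units in WT EV lungs. All Tsc1-null EV lungs were lower, replicate 1 by the most (log2 fold -0.43 ± 0.18 SE, limma adjusted p = 0.721). Without replicate 1 its log2 fold was -0.26. The gene occupies chromosome 19, bases 34550694 to 34576419, on the plus strand of GRCm38, and none of its 50-base words occurred in another gene's transcripts.

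Its neighbours on chromosome 19 did not separate the groups. Ifit1, which recognises viral RNA caps, had 24.3, 37.2 and 37.2 units in Tsc1-null EV lungs and 41.3, 30.6 and 40.3 units in WT EV lungs. Ifit3, a partner of Ifit1, had 21.7, 58.5 and 62.0 units in Tsc1-null EV lungs and 77.7, 54.8 and 70.1 units in WT EV lungs. Its log2 fold of -0.63 ± 0.37 was the lowest of the type I class, yet it was -0.15 without Tsc1-null EV replicate 1. Of its 50-base words 51.2% also occur in Ifit3b, so its reads cannot be assigned to it alone.

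Bst2, or tetherin, which holds budding virions at the cell surface, had 58.3, 91.9 and 97.5 units in Tsc1-null EV lungs, against 102.5, 101.0 and 99.6 units in WT EV lungs. The groups did not overlap, but the gap between the highest Tsc1-null EV lung and the lowest WT EV lung was small, and the log2 fold of -0.32 ± 0.20 became -0.09 without replicate 1 (limma adjusted p = 0.762 with it). Mx2, of the Mx family of dynamin-like GTPases, had 3.81, 3.56 and 2.65 units in Tsc1-null EV lungs, against 4.76, 6.17 and 4.07 units in WT EV lungs. Its log2 fold was -0.46 ± 0.24, from 19 to 42 reads per library, and here replicate 3 and not replicate 1 was the lowest Tsc1-null EV lung. Mx1, its paralogue, averaged under 1 unit and was not tested, with 3, 4 and 9 reads in Tsc1-null EV lungs and 7, 12 and 10 reads in WT EV lungs.

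The most familiar interferon markers followed replicate 1. Isg15, a ubiquitin-like protein that is attached to other proteins, had 10.4, 28.1 and 21.3 units in Tsc1-null EV lungs and 29.4, 18.2 and 20.5 units in WT EV lungs. Rsad2, or viperin, which makes a chain-terminating nucleotide, had 6.21, 14.6 and 11.7 units in Tsc1-null EV lungs and 16.2, 13.1 and 14.6 units in WT EV lungs. In both genes the lung with the least was Tsc1-null EV replicate 1 and the other 5 lungs were intermixed. Rsad2 had a log2 fold of -0.47 ± 0.28, which was -0.15 without that lung, and Isg15 changed its sign, with -0.25 ± 0.34 against 0.13 without that lung.

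The oligoadenylate synthetase family, whose active members make the messenger for RNase L, had no common direction without that lung. Oas1a had 9.42, 20.9 and 17.8 units in Tsc1-null EV lungs and 17.4, 10.9 and 13.4 units in WT EV lungs (log2 fold 0.15 ± 0.30). It shares 57.6% of its words with Oas1g. Oasl2, a relative with ubiquitin-like domains, had 29.7, 52.6 and 60.6 units in Tsc1-null EV lungs and 65.9, 39.8 and 39.4 units in WT EV lungs. Oas2, Oas3 and Oasl1 were low, with means over all lungs of 8.10, 4.37 and 4.91 units and log2 folds of -0.22, -0.15 and -0.25. Without Tsc1-null EV replicate 1 the log2 folds were 0.47 for Oas1a, 0.10 for Oas2, 0.12 for Oas3, -0.05 for Oasl1 and 0.26 for Oasl2. Relatives outside the 43 stayed below 0 without it, with -0.90 for Oas1b, -0.52 for Oas1g and -0.28 for Oas1c, the last named after its values were seen.

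Of the other effectors, Zbp1, a sensor of Z-form nucleic acid that triggers necroptosis, had the highest log2 fold, 0.33 ± 0.34. Its values were 4.41, 9.49 and 9.17 units in Tsc1-null EV lungs and 8.78, 4.12 and 4.81 units in WT EV lungs, so each group had a library that sat with the other group. Xaf1, a pro-apoptotic protein, had 14.8, 24.7 and 25.6 units in Tsc1-null EV lungs and 27.9, 31.2 and 24.8 units in WT EV lungs, with a log2 fold of -0.38 ± 0.23 that was -0.14 without Tsc1-null EV replicate 1. Parp14, which transfers ADP-ribose, and Ifi35 had log2 folds of -0.25 ± 0.16 and -0.21 ± 0.15. Rtp4, Cmpk2 (a mitochondrial nucleotide kinase) and Ifi44 had log2 folds of -0.17, -0.11 and -0.06, each smaller than its SE.

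The cytosolic sensors and their ligase overlapped between the groups. Their mean level was -0.21, 0.18 and 0.09 in Tsc1-null EV lungs and 0.02, 0.03 and -0.05 in WT EV lungs. Ddx58, which encodes the RNA sensor RIG-I, had 40.9, 48.4 and 52.5 units in Tsc1-null EV lungs and 53.7, 49.7 and 47.3 units in WT EV lungs (log2 fold -0.09 ± 0.15). Ifih1, the related sensor of long RNA, had a log2 fold of -0.12 ± 0.19, and Trim25, the ubiquitin ligase that acts on RIG-I, of -0.02 ± 0.20. Dhx58, another helicase of the family that lacks the signalling domains, had 4.81, 7.22 and 5.19 units in Tsc1-null EV lungs and 5.85, 3.67 and 3.70 units in WT EV lungs, with a log2 fold of 0.32 ± 0.25.

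Usp18 went against the other non-overlapping members. It removes ISG15 from proteins and also blocks the type I receptor, which makes it the feedback brake of this response. It had 40.1, 37.2 and 30.2 units in Tsc1-null EV lungs, against 27.0, 20.6 and 27.4 units in WT EV lungs. All Tsc1-null EV lungs were higher, with means of 35.8 ± 5.11 units in Tsc1-null EV lungs and 24.97 ± 3.82 units in WT EV lungs (SD, n = 3 each) and a log2 fold of 0.50 ± 0.18 (limma adjusted p = 0.721). Tsc1-null EV replicate 1, lowest in most members, was the highest of the 6 lungs in Usp18. The log2 fold was 0.42 without it and 0.29 without both libraries that stood apart. Usp18 occupies bases 121245906 to 121270917 of chromosome 6, plus strand.

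The transcription factors of the type I pathway overlapped between the groups. Stat2 had 45.5, 44.5 and 49.5 units in Tsc1-null EV lungs and 51.6, 61.4 and 47.5 units in WT EV lungs (log2 fold -0.19 ± 0.15). Irf9, its DNA-binding partner, had 33.1, 52.8 and 49.8 units in Tsc1-null EV lungs and 53.9, 58.3 and 48.4 units in WT EV lungs. Irf7, which amplifies interferon production, had 15.2, 23.5 and 35.4 units in Tsc1-null EV lungs and 25.1, 20.7 and 21.3 units in WT EV lungs, so the Tsc1-null EV lungs held both the lowest and the highest value.

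**Figure D2:**
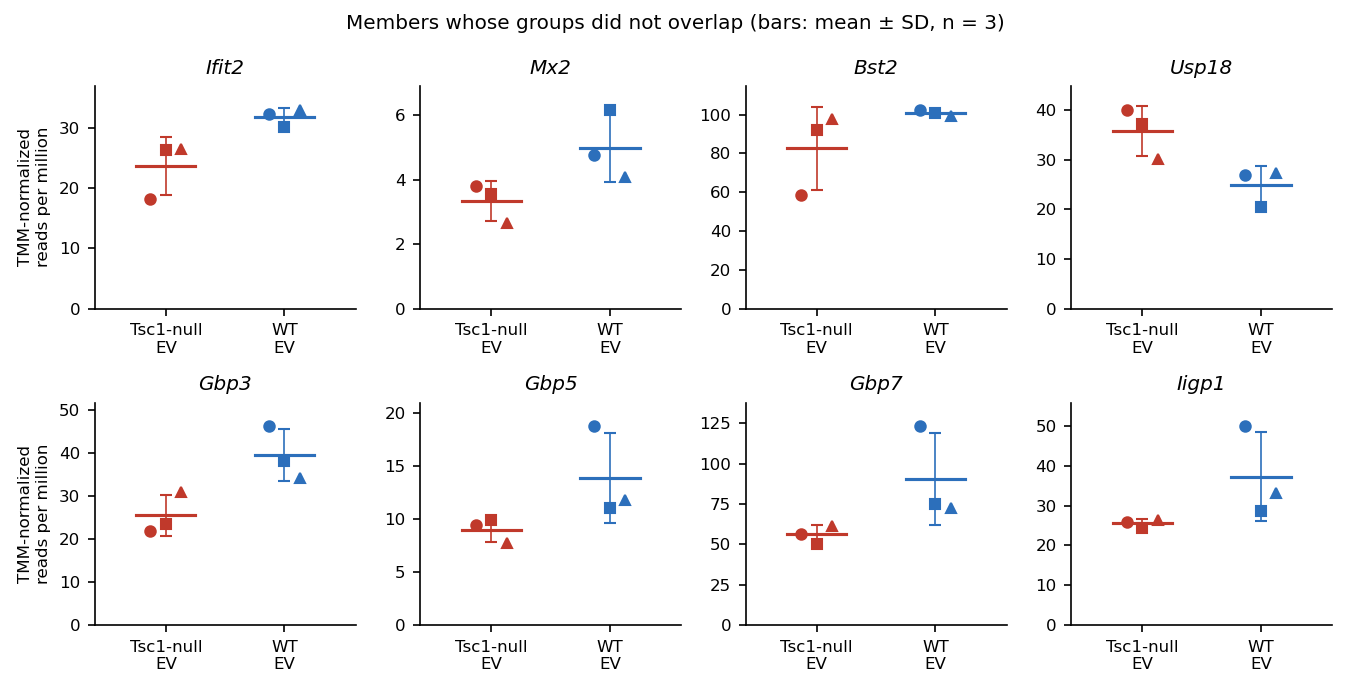
Units (TMM-normalized CPM) of the 8 members whose groups did not overlap, with a panel each, Tsc1-null EV lungs in red and WT EV lungs in blue; horizontal bars are means and vertical bars ± SD (n = 3 each), and shapes give replicates 1 (circle), 2 (square) and 3 (triangle). Every Tsc1-null EV lung lies above the WT EV lungs in Usp18 and below them in the other 7 genes, and in Gbp5, Gbp7 and Iigp1 WT EV replicate 1 lies well above the other WT EV lungs.

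Among the gamma genes, 14 of 15 had a log2 fold below 0 (median -0.43), and the GBPs and IRGs were all below 0. The 3 factors and feedback genes had a median of -0.19, and the groups overlapped in each. Irf1, a factor that interferon gamma induces, had 108.3, 121.0 and 116.2 units in Tsc1-null EV lungs and 119.0, 135.7 and 140.3 units in WT EV lungs (log2 fold -0.19 ± 0.14). Irf8, a factor of myeloid and dendritic cells, had 21.9, 32.5 and 30.8 units in Tsc1-null EV lungs and 32.3, 40.0 and 36.4 units in WT EV lungs. The highest Tsc1-null EV value of Irf8 lay just above the lowest WT EV value, and its log2 fold of -0.36 ± 0.19 came to -0.19 when Tsc1-null EV replicate 1 was left out and to -0.11 when both libraries that stood apart were. Socs1, which inhibits JAK kinases, was the only gamma member above 0, with 4.01, 5.93 and 4.64 units in Tsc1-null EV lungs and 4.03, 4.41 and 4.94 units in WT EV lungs (log2 fold 0.09 ± 0.22).

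All 8 GBPs had a log2 fold below 0, with a median of -0.50, and 3 of them (37.5%) had every Tsc1-null EV value below every WT EV value, against 6.22% of all genes. Their mean level was -0.63, -0.45 and -0.28 in Tsc1-null EV lungs and 0.20, 0.01 and -0.21 in WT EV lungs, in log2 units from the WT EV mean, so on this average all Tsc1-null EV lungs were lower than all WT EV lungs. Replicates 2 and 3 of the Tsc1-null EV group also lay well below the WT EV mean. The closest lungs of the groups stood at -0.28 and -0.21, and in summed units the groups overlapped. The sums of the 8 GBPs were 190.2, 228.2 and 277 units in Tsc1-null EV lungs and 412.8, 304.4 and 274.5 units in WT EV lungs. Without Tsc1-null EV replicate 1 the median log2 fold was -0.35, with all 8 below 0.

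Mouse GBP genes lie in clusters on chromosomes 3 and 5, and the 3 member GBPs whose groups did not overlap were all in the chromosome 3 cluster. It spans 142493978 to 142638008 (GRCm38) and contains Gbp5, Gbp7, Gbp3, Gbp2b and Gbp2 in that order, of which Gbp2b is not among the 43. Gbp7 had 56.7, 50.2 and 61.6 units in Tsc1-null EV lungs, against 123.2, 74.8 and 72.8 units in WT EV lungs. Its means were 56.2 ± 5.72 units in Tsc1-null EV lungs and 90.3 ± 28.5 units in WT EV lungs (SD, n = 3 each), and its log2 fold of -0.64 ± 0.22 was the lowest of all members (limma adjusted p = 0.721).

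Gbp3, next to it, had 21.9, 23.5 and 30.9 units in Tsc1-null EV lungs, against 46.1, 38.1 and 34.2 units in WT EV lungs (log2 fold -0.62 ± 0.19, limma adjusted p = 0.721). It had the smallest unadjusted p of the members, 0.0103 in limma. Gbp5, a GBP that promotes inflammasome assembly, had 9.42, 9.92 and 7.73 units in Tsc1-null EV lungs, against 18.8, 11.0 and 11.8 units in WT EV lungs (log2 fold -0.54 ± 0.23). Without Tsc1-null EV replicate 1 the log2 folds were -0.64 for Gbp7, -0.52 for Gbp3 and -0.57 for Gbp5. Without WT EV replicate 1, the highest lung in each of these genes, they were -0.39 for Gbp7, -0.50 for Gbp3 and -0.32 for Gbp5.

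Gbp2b had 31.5, 45.9 and 42.97 units in Tsc1-null EV lungs, against 63.8, 53.8 and 51.7 units in WT EV lungs, again without overlap (log2 fold -0.49 ± 0.18). Gbp2, which is recruited to bacterial vacuoles, did overlap, with 34.1, 61.8 and 58.1 units in Tsc1-null EV lungs and 74.6, 63.3 and 52.3 units in WT EV lungs, and its log2 fold of -0.33 ± 0.24 was -0.07 without Tsc1-null EV replicate 1. Summed over the 5 genes of the cluster, Tsc1-null EV lungs had 153.6, 191.4 and 201.4 units and WT EV lungs 326.5, 241.0 and 222.8 units. Gbp3 and Gbp7 share 3.75% and 12.7% of their words with other annotated genes, so their own levels are uncertain by an amount that was not examined.

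The chromosome 5 cluster, from 105014150 to 105346472, holds Gbp8, Gbp9, Gbp4, Gbp10, Gbp6 and Gbp11, and the annotated spans of Gbp8, Gbp9 and Gbp4 overlap. The groups overlapped in all 4 of its members. Gbp4 had 41.1, 45.9 and 74.0 units in Tsc1-null EV lungs and 98.1, 63.5 and 64.3 units in WT EV lungs (log2 fold -0.50 ± 0.26). Gbp6 had 12.03, 17.8 and 19.4 units in Tsc1-null EV lungs and 28.7, 23.2 and 18.8 units in WT EV lungs, and 70.7% of its words occur in other genes. Gbp4 and Gbp6 had log2 folds of -0.33 and -0.30 without Tsc1-null EV replicate 1, and Gbp4 had -0.29 without WT EV replicate 1. Gbp9 had a log2 fold of -0.35 ± 0.26, or -0.10 when Tsc1-null EV replicate 1 was left out and 0.02 when both libraries that stood apart were. Gbp8, with 13 to 32 reads per library, had -0.16 ± 0.34, which was 0.12 without WT EV replicate 2. Of the cluster genes outside the list, Gbp11 did not overlap (0.60, 0.97 and 0.99 units in Tsc1-null EV lungs, against 1.59, 2.20 and 1.73 units in WT EV lungs) and Gbp10, named with its cluster after its values were seen, did. The summed level of the 6 genes was 71.2, 87.5 and 124.8 units in Tsc1-null EV lungs and 158.0, 124.5 and 108.8 units in WT EV lungs. Counting all 11 GBP genes of both clusters, 11 had a log2 fold below 0 and 5 (45.5%) were lower without overlap, against 6.22% of all genes. Gbp11, among the 5, had 3, 9 and 9 reads in Tsc1-null EV lungs and 13, 15 and 14 reads in WT EV lungs.

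The IRGs, partners of the GBPs at pathogen vacuoles, divided in their behaviour. Iigp1 (chromosome 18, bases 60376027 to 60392634) had 25.9, 24.3 and 26.4 units in Tsc1-null EV lungs, against 49.9, 28.7 and 33.2 units in WT EV lungs. The Tsc1-null EV lungs were close to each other and all lower (log2 fold -0.49 ± 0.21, limma adjusted p = 0.721), with -0.50 when Tsc1-null EV replicate 1 was left out and -0.27 when WT EV replicate 1 was. Irgm2 and Igtp, whose annotated spans on chromosome 11 overlap and whose products regulate the other IRGs, looked alike in size but rested on Tsc1-null EV replicate 1. Irgm2 had 16.6, 33.9 and 39.1 units in Tsc1-null EV lungs and 45.5, 37.8 and 32.6 units in WT EV lungs, and its log2 fold of -0.43 ± 0.30 was -0.07 without that lung. Igtp had 12.6, 25.2 and 28.8 units in Tsc1-null EV lungs and 35.4, 26.9 and 24.9 units in WT EV lungs, with -0.43 ± 0.30 and -0.09 without that lung. Irgm1, a regulator encoded elsewhere on chromosome 11, had a log2 fold of -0.13 ± 0.20.

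**Figure D3:**
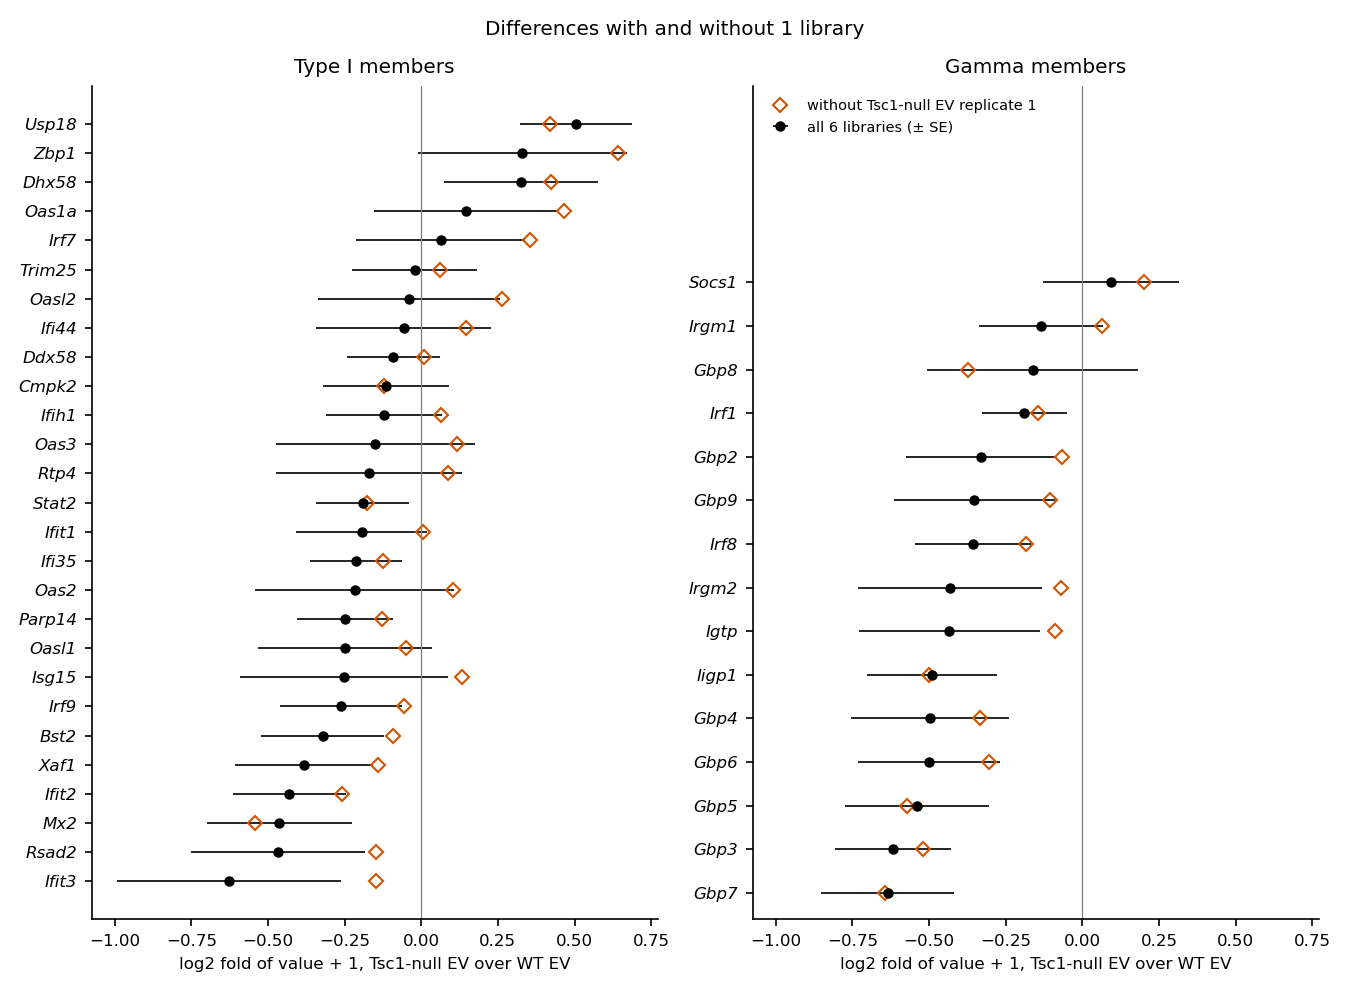
Log2 ratio of value + 1 (Tsc1-null EV divided by WT EV) for each tested member, with type I members at the left and gamma members at the right; black points show all 6 libraries with ± SE, and open diamonds the value without Tsc1-null EV replicate 1. The diamonds of Ifit3, Rsad2, Irgm2 and Igtp move close to 0, while those of Gbp7, Gbp5, Iigp1 and Mx2 stay near or below their black points.

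Set side by side, the gamma class lay lower than the type I class in Tsc1-null EV lungs. The type I level was -0.53, 0.05 and 0.05 in Tsc1-null EV lungs and 0.18, -0.08 and -0.10 in WT EV lungs. The gamma level was -0.63, -0.29 and -0.19 in Tsc1-null EV lungs and 0.15, -0.01 and -0.14 in WT EV lungs. Type I minus gamma within each library was 0.10, 0.34 and 0.24 in Tsc1-null EV lungs and 0.03, -0.07 and 0.04 in WT EV lungs.

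All 3 Tsc1-null EV lungs had the larger type I minus gamma difference, by 0.23 between the group means, with a pooled SD of 0.10 between libraries of a group. With 1 replicate left out it was 0.17 to 0.29, the lowest value without Tsc1-null EV replicate 2. The genes of the same classes outside the 43 did not show it. There the type I level was -0.42, -0.14 and -0.14 in Tsc1-null EV lungs and -0.04, 0.08 and -0.05 in WT EV lungs, and the gamma level was -0.58, -0.04 and -0.03 in Tsc1-null EV lungs and 0.10, -0.05 and -0.05 in WT EV lungs. In replicates 2 and 3 of the Tsc1-null EV group it was the type I level of these genes that lay lower. The difference over the 43 is given without a test, because the genes and classes were chosen with these data known. Without Tsc1-null EV replicate 1 the median log2 fold was 0.01 in the type I class (15 above 0 and 12 below) and -0.19 in the gamma class (2 above and 13 below). Without WT EV replicate 1, the highest lung in 10 of 15 gamma genes, the medians were -0.12 for type I and -0.31 for gamma.

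**Figure D4:**
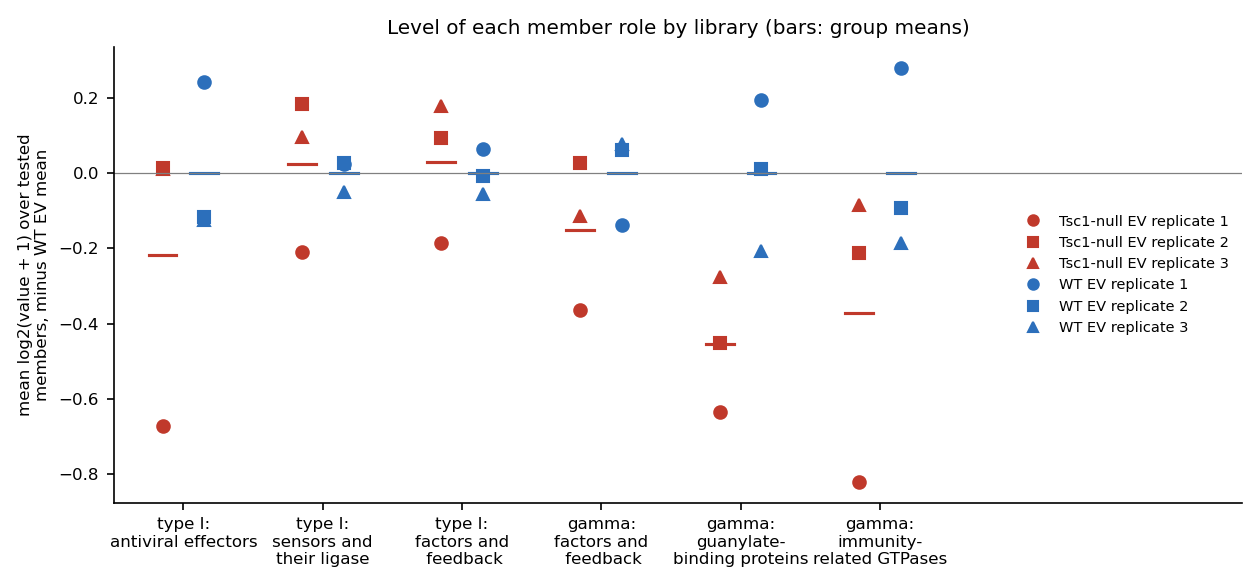
Mean log2(value + 1) over the tested members of each role, minus the WT EV mean, in each library; red marks Tsc1-null EV lungs, blue WT EV lungs, shapes give replicates and bars are group means. The 3 Tsc1-null EV lungs lie below the 3 WT EV lungs only for the guanylate-binding proteins; for the antiviral effectors replicates 2 and 3 of the Tsc1-null EV group stand at 0.01, beside the low replicate 1 at -0.67.

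Per kilobase of exon, Bst2 was the most abundant member at 101.7 units per kb over all 6 lungs. It was followed by Ifi35 at 33.0, Ifit3 at 32.9, Irf1 at 31.0, Isg15 at 28.2 and Gbp2 at 22.8 units per kb. At the low end were Mx1 at 0.259, Oas3 at 0.618 and Gbp8 at 0.807 units per kb. The non-overlapping members spanned the range, with Gbp7 at 13.1, Usp18 at 10.9, Gbp3 at 9.94, Ifit2 at 7.08, Iigp1 at 5.39, Gbp5 at 1.73 and Mx2 at 1.15 units per kb.

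The wider interferon pathway was read from a list of 99 further genes, of which 95 had a row and 71 were tested. None passed limma's test, and 11 (15.49%) had an unadjusted p under 0.05, where all genes had 2.97% lower and 3.6% higher at that level. Of the 11, Tmem173 and the type I induced gene Lgals3bp were higher, with log2 folds of 0.53 and 0.64, and the rest were lower. Of the 71, 52 had a log2 fold below 0 and 19 above (median -0.14), against 37 below and 34 above without Tsc1-null EV replicate 1. The groups did not overlap in 11 lower genes (15.49%, against 6.22% of all genes) and in 1 higher gene (1.41%, against 6.86%). The ligands were almost absent from these libraries. Of 21 interferon genes, 18, among them Ifnb1, were listed at 0 in all 6 lungs. Ifna1 had 1 read in a Tsc1-null EV lung and Ifnk 1 read in a WT EV lung, and Ifng had 1, 0 and 0 reads in Tsc1-null EV lungs and 0, 3 and 4 reads in WT EV lungs. No difference in a ligand was detectable at this depth.

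The receptors were expressed, and 5 of 6 had a log2 fold below 0 (median -0.11). Ifnar1, the first chain of the type I receptor, had 58.9, 56.0 and 65.1 units in Tsc1-null EV lungs and 64.8, 91.9 and 74.2 units in WT EV lungs (log2 fold -0.34 ± 0.17).

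The sensors and adaptors that lead to interferon production had 7 of 12 tested genes above 0. Tmem173, which encodes STING, the adaptor for cytosolic DNA, had 24.7, 27.3 and 21.8 units in Tsc1-null EV lungs, against 21.1, 12.4 and 17.8 units in WT EV lungs, all higher (log2 fold 0.53 ± 0.22, limma adjusted p = 0.721). Tbk1, the kinase that STING activates, was lower throughout, at 36.9, 31.2 and 32.4 units in Tsc1-null EV lungs, against 39.2, 40.3 and 37.3 units in WT EV lungs. Irf3, the factor that TBK1 phosphorylates, was also lower throughout, at 40.5, 48.3 and 46.1 units in Tsc1-null EV lungs, against 49.5, 48.7 and 51.3 units in WT EV lungs. Their log2 folds were -0.21 ± 0.14 and -0.15 ± 0.14. Of the 6 negative regulators 4 were above 0, and none had groups that did not overlap.

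Genes induced by type I interferon but outside the 43 had 22 of 26 log2 folds below 0 (median -0.22). The median was -0.11, with 17 below 0, without Tsc1-null EV replicate 1. Herc6, the mouse ligase that attaches ISG15, had 10.4, 13.1 and 12.7 units in Tsc1-null EV lungs, against 18.2, 25.3 and 16.9 units in WT EV lungs (log2 fold -0.68 ± 0.20, limma adjusted p = 0.721). Ifi203 had 65.0, 61.9 and 64.2 units in Tsc1-null EV lungs, against 113.1, 75.4 and 76.7 units in WT EV lungs. Samd9l, an antiviral restriction factor, had 26.3, 37.1 and 43.97 units in Tsc1-null EV lungs and 43.5, 76.9 and 59.5 units in WT EV lungs, with the groups just overlapping. Oas1g and Oas1b were the other genes of this list lower in all Tsc1-null EV lungs, and Oas1b is named after its values were seen. Genes induced by interferon gamma but outside the 43 had 14 of 17 below 0 (median -0.30), with 5 (29.4%, against 6.22% of all genes) lower in all Tsc1-null EV lungs: Gbp2b, Gbp11, Cxcl10, Cd274 and Ifi47, the last named after its values were seen. The 3 above 0, named after their values were seen, were the chemokine gene Cxcl9, Nos2 and Tgtp1, with log2 folds of 0.54, 0.49 and 0.23. Cxcl10, a chemokine that attracts activated lymphocytes, had 0.20, 2.26 and 1.55 units in Tsc1-null EV lungs, against 3.54, 3.67 and 2.71 units in WT EV lungs (log2 fold -0.99 ± 0.38). These were 1, 21 and 14 reads in Tsc1-null EV lungs and 29, 25 and 22 reads in WT EV lungs, and the log2 fold was -0.57 without Tsc1-null EV replicate 1. Cd274, which encodes PD-L1, had 9.42, 7.55 and 9.61 units in Tsc1-null EV lungs, against 13.4, 14.1 and 10.7 units in WT EV lungs. Without Tsc1-null EV replicate 1 the median of these gamma genes was 0.03, with 9 above 0 and 8 below, so these gamma genes then lay above the type I genes outside the 43, the opposite order to the members.

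Markers of the cells that could carry these genes were read in the same libraries. All 9 endothelial markers had a log2 fold below 0, and their summed level was 2065, 3136 and 3840 units in Tsc1-null EV lungs and 4106, 3227 and 4265 units in WT EV lungs, lowest in Tsc1-null EV replicate 1. Egfl7, Sox17 and Ramp2 (33.3% of the 9) were lower in all Tsc1-null EV lungs, against 6.22% of all genes. The groups overlapped in Pecam1, the marker with the highest level. Without Tsc1-null EV replicate 1 the median log2 fold of the endothelial markers was -0.13, with 7 below 0 and 2 above. Natural killer markers, from the main source of interferon gamma in mice short of lymphocytes, summed to 41.1, 57.9 and 59.7 units in Tsc1-null EV lungs and 86.6, 44.5 and 55.2 units in WT EV lungs, with 5 of 7 tested markers below 0 and Klra8 at 0. Their sum was highest in WT EV replicate 1, as were the dendritic cell and alveolar macrophage sums given below. In replicates 2 and 3 the natural killer sums were higher in Tsc1-null EV lungs than in WT EV lungs.

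Dendritic cell markers summed to 50.9, 91.5 and 94.2 units in Tsc1-null EV lungs and 98.7, 82.5 and 87.0 units in WT EV lungs, with 5 of 8 tested below 0. Without Tsc1-null EV replicate 1, 5 of the 8 were above 0 (median log2 fold 0.03). Clec9a, of cross-presenting dendritic cells that express Irf8, had 12.4, 25.8 and 34.0 units in Tsc1-null EV lungs and 45.3, 33.2 and 37.3 units in WT EV lungs. Its log2 fold of -0.76, the lowest of this list, was -0.36 without that lung. Itgax, Flt3 and Zbtb46 went the other way, with log2 folds of 0.23, 0.42 and 0.14. Alveolar macrophage markers summed to 217, 385 and 381 units in Tsc1-null EV lungs and 473, 308 and 411 units in WT EV lungs, with 4 of 6 tested below 0. Of the 6, 5 were above 0 (median 0.33) without Tsc1-null EV replicate 1. Most of this sum was Car4, which lung capillary endothelium also expresses, at 154.2, 262.0 and 267.3 units in Tsc1-null EV lungs and 357.3, 213.7 and 325.1 units in WT EV lungs. Monocyte and interstitial macrophage markers went the other way, with 8 of 9 above 0 and sums of 292, 471 and 464 units in Tsc1-null EV lungs and 382, 254 and 342 units in WT EV lungs. Neutrophil markers (4 of 6 tested below 0) summed to 70.9 to 89.8 units in Tsc1-null EV lungs and 48.2 to 87.9 units in WT EV lungs. Much of the sum was Cxcr2 in both libraries that stood apart, at 45.5 units in Tsc1-null EV replicate 1 and 39.1 units in WT EV replicate 2. Lung epithelial markers had 7 of 9 above 0 (median 0.38) and summed to 97637 to 114431 units in Tsc1-null EV lungs and 73961 to 97758 units in WT EV lungs. Most of this sum was Scgb1a1, at 61601 to 91441 units in Tsc1-null EV lungs and 48294 to 68246 units in WT EV lungs. Abca3, the lipid transporter of lamellar bodies, had 217.1, 335.9 and 293.1 units in Tsc1-null EV lungs, against 195.8, 183.9 and 156.3 units in WT EV lungs, all higher (log2 fold 0.64 ± 0.19, limma adjusted p = 0.721). T and B cell markers summed to 10.2 to 13.8 units in Tsc1-null EV lungs and 10.9 to 11.5 units in WT EV lungs. The part of these cell types in the interferon genes was not tested.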

How the data were processed

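RNA from whole lung was sequenced as paired ends, per the labels' protocols. A table of TMM-normalized signal for 6 libraries was deposited by the authors, and its columns sum to between 964931 and 1022663. The submitters' processing notes name Bowtie2 2.1.0, RSEM 1.2.15, edgeR and mm10 but give no roles for them, and the use of strand is not given in the sources used here. No step that separates reads of the rat ELT3 cells from those of the mouse is named, and how many were counted was not examined.

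Within each library the values were whole multiples of 1 step (100% within 0.001), so whole reads were recovered and tested with edgeR 4.0.16 and DESeq2 1.42.0 as alternatives. Genes with a mean of at least 1 were kept, and log2(value + 1) was compared between the groups with limma 3.58.1 in R 4.3.3 (trend, two-sided, Benjamini-Hochberg over 14159 genes, threshold 0.05), which understates folds of low genes. The limma comparison, and not the recovery of reads, was also run on simulated reads with known folds, and its outcome is not reported here. Libraries of a group differed by more than counting noise (chi-square per degree of freedom 8.78 to 55.2), and the labels give no batch and number each mouse separately. Positions, exon lengths and shared 50-base words come from GENCODE M21.

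The members, classes and other lists were chosen with earlier results of these data known. Any member could be named, as could pathway genes with the 4 smallest unadjusted p per role or the highest level, and the highest or defining cell markers. Some listed genes are not reported here.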

Additional observations from a re-analysis of the deposited data

How the results depend on the processing

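Over 16 alternatives, the count of genes called (0 with all libraries) was 1050 with sample weights, 11 with DESeq2 and 25 without both libraries that stood apart, a setting chosen after seeing the data. It was 0 to 2 when 1 replicate was left out. Sample weights, which ran from 0.213 to 4.19 per library, called 2 of 42 members, Gbp3 and Gbp7, both lower, and every other setting called 0. The 1050 calls among all 14159 genes are a larger share, so these 2 calls do not set the members apart. Within the WT EV group the third lung weighed 4.19, against 0.93 and 0.39 for the others. Among Tsc1-null EV lungs the second weighed 3.95, against 0.21 and 0.78. The weighted fit therefore rests largely on 1 lung per group. The count of non-overlapping members (8) was 14 without both libraries and 10 to 15 with 1 replicate left out, where fewer libraries make such a pattern easier to meet: over all genes the share was 13.1% with 6 libraries, 29.1% without Tsc1-null EV replicate 1 and 42.3% without both. The gamma median (-0.432) was -0.185 with sample weights, -0.123 without both libraries and -0.533 to -0.185 with 1 replicate left out, the last without Tsc1-null EV replicate 1. The type I median (-0.192) was 0.006 with sample weights and 0.008 without that replicate. Of the members, 20 took another sign in at least 1 alternative. No paired analysis was possible because the labels number the mice without a number shared between the groups. Depth limits the rarest members: Mx1 had 3 to 12 reads per library and Gbp8 13 to 32.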
